A study of Homo sapiens with 9 samples.

Results

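The genes of N-glycan assembly and transfer were followed in MDA-MB-231 cells, an established human triple-negative breast cancer line, exposed to 2-deoxy-glucose (2-DG). The set holds 41 genes of the 61552 listed for each library, and its members were picked by gene name: 5 genes of mannose activation, 5 of dolichol synthesis and recycling, 5 of the dolichol-linked sugar donors, 6 of assembly on the cytosolic face of the endoplasmic reticulum (ER), 5 of assembly in its lumen, 12 subunits of the oligosaccharyltransferase and 3 of the first trimming steps. The rule uses no measured value, but the set was proposed with earlier results of these data known. RNA was sequenced after 24 h in 3 groups of 3 libraries each: control (0 mM), a dose of 10 mM and a dose of 20 mM 2-DG. Control cells received phosphate-buffered saline. All 9 libraries came from the same line, labelled as wild type, grown in serum-containing DMEM. The labels do not say that the libraries of a group came from separate cultures, so p-values measure the spread between these libraries, which may be technical. Both doses were compared with the same 3 control libraries.

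N-glycans are built as a lipid-linked oligosaccharide. The polyisoprenoid dolichol, anchored in the ER membrane, receives N-acetylglucosamine and mannose from nucleotide sugars on the cytosolic side. After the chain is turned into the lumen, further mannose and glucose come from dolichol-phosphate-mannose and dolichol-phosphate-glucose. The oligosaccharyltransferase (OST) then moves the finished glycan onto asparagines of new proteins, and glucosidases trim it so that the calnexin cycle can inspect folding. 2-DG is an analogue of glucose and also of mannose, which differs from glucose at the same carbon, and it is known to be built into the lipid-linked oligosaccharide in place of mannose. How the transcripts of the pathway's own enzymes stood under 2-DG is the question taken up here.

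Expression was given as FPKM, fragments scaled to the length of the gene and the total of the library. The library totals recovered from these values lay between 34300991 and 36650036 reads in the control group, between 34374980 and 40843638 at 10 mM and between 30974968 and 39780925 at 20 mM. All 41 genes passed the filter on low values, which kept 16572 genes. Their reads ran from 14 to 45 per library for SRD5A3, the lowest, to between 19510 and 30043 for RPN2. Of the markers chosen as high in this line, VIM lay between 243 and 313 FPKM and CD44 between 52.9 and 74.1 FPKM. EGFR lay between 11.4 and 16.8 FPKM in the control group and between 17 and 33.6 FPKM under 2-DG. ESR1 did not exceed 0.00829 FPKM and PGR 0.0204 FPKM, while ERBB2 lay between 5.53 and 9.11 FPKM. CDH1 lay between 0.278 and 0.417 FPKM in the control group and between 0.0479 and 0.0747 FPKM under 2-DG. Of the markers of other cells, PTPRC stayed at or below 0.0327 FPKM, CD3E at or below 0.0109 FPKM and PECAM1 between 0.826 and 1.95 FPKM. In RNA from a whole culture, fewer cells of a kind and less RNA per cell cannot be told apart.

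Libraries of a group also differed with gene length. Across all 16572 genes tested, the deviation of control replicate 1 from its group mean fell with length (Spearman's rho = -0.30) and so did that of 10 mM replicate 2 (-0.36), whereas control replicate 2 (0.30) and 10 mM replicate 1 (0.37) leaned the other way. For the 41 genes the same values were -0.41, -0.35, 0.18 and 0.17. The rho of the fold changes against control with length was 0.01 at 10 mM and -0.00 at 20 mM across all genes and -0.05 and -0.11 across the 41 genes. These are correlations across genes, which are not independent replicates.

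Promoter windows of RefSeq (GRCh38.p14, 250 bases before to 50 bases after the transcription start) were matched for 37 of the 41 genes. 5 motifs tied to ER stress and amino acid stress were searched on both strands. The ER stress response element (ERSE), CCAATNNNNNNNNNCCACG, is read by ATF6 with NF-Y, and its CCACG end is also counted below as a core of its own. ERSE occurred in 1 of the 37 promoters, that of ALG12, against 0.0916% of all 27305 promoters and 0.141% of the 11335 promoters of tested genes. ERSE-II, ATTGGNCCACG, occurred in 0 of the 37 (0.0696% of all promoters), and TGATGNAA, the core of the amino acid response element, in 0 of the 37 (4.46%). The core CCACG occurred in 25 of the 37 promoters (67.6%), against 42.1% of all promoters and 56.2% of those of tested genes. The core TGACG occurred in 15 of the 37 (40.5%), against 28.4% and 39.4%. Among the genes that rose at 20 mM 2-DG, 8 of 15 promoters held CCACG, and among those that fell, 5 of 7. RPN1, MOGS, TUSC3 and STT3B had no matched window, and all of them rose at 20 mM. A match describes letters in this window and is not a binding site.

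4 promoters are shown for contrast: ALG12 as the one with ERSE, GMPPA and OSTC as promoters of genes that rose strongly, and ALG6 as that of a gene that fell. Capitals mark ERSE in ALG12, which runs from 134 to 116 bases before the start, and the CCACG core in OSTC, which holds it once on each strand, and in ALG6. None of the searched motifs lay in the GMPPA window. The ALG12 window lies at chr22:49918389-49918688 on the minus strand, that of GMPPA at chr2:219498641-219498940 on the plus strand, that of OSTC at chr4:108650349-108650648 on the plus strand and that of ALG6 at chr1:63367377-63367676 on the plus strand.
ALG12: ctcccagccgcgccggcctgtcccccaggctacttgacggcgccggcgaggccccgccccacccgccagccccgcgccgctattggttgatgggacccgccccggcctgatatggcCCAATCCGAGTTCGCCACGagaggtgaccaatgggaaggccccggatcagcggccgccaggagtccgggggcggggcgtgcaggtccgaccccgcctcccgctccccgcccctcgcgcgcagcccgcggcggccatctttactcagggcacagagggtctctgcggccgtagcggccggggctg
GMPPA: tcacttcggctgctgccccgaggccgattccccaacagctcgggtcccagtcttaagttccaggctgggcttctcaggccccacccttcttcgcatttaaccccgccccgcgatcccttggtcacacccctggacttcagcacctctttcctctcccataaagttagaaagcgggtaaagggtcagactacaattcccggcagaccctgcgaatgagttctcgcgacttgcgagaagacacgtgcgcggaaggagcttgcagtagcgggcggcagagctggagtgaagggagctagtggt
OSTC: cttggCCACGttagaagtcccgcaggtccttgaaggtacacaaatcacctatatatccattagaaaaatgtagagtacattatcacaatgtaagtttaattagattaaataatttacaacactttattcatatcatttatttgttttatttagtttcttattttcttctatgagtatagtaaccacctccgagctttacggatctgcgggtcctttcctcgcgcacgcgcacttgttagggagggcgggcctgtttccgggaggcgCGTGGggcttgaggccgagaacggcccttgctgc
ALG6: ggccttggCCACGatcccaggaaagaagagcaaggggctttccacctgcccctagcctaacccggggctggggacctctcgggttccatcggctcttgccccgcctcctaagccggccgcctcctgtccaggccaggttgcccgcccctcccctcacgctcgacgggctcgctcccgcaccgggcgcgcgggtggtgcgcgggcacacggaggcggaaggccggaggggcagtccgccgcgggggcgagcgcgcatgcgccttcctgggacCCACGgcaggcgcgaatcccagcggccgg

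Under 2-DG the pathway's transcripts moved in both directions, with more increases than decreases, and no log2 fold change on log2(FPKM + 1) went beyond 0.96. A gene was called when its adjusted p was under 0.05 in limma on log2(FPKM + 1), with Benjamini-Hochberg adjustment over all 16572 genes. Against control, 10 mM 2-DG gave 15 increases among the 41 genes, where 12.1% of all genes tested were higher, and 5 decreases, where 17.5% of all genes were lower. At 20 mM 2-DG, 19 were higher (15.4% of all genes) and 7 were lower (21.6% of all genes). The median log2 fold change of the 41 genes was 0.13 at 10 mM and 0.20 at 20 mM, against -0.01 and -0.02 over all genes tested. The 15 increases and 5 decreases at 10 mM were all called in the same direction at 20 mM, where ALG12, DPM2, NUS1 and TUSC3 joined the increases and ALG8 and PRKCSH the decreases. The doses share their control libraries, so the calls at 20 mM are not a separate repeat of those at 10 mM. The overlap of calls over all genes was not counted.

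By the thresholds of the study's methods, an unadjusted p under 0.05 with an absolute log2 fold change over 1, 0 of the 41 genes were higher or lower at either dose. At 20 mM, 1 was higher with median-ratio scaling, 2 with a pseudocount of 0.1, 2 with limma-voom on recovered reads and 3 with upper-quartile scaling. The study applied these thresholds to DESeq2 fold changes, whereas the 1 added to FPKM here shrinks fold changes, so the cutoff is stricter. For GMPPA at 20 mM the ratio of mean FPKM was 2.04, with a log2 fold change of 0.96 on log2(FPKM + 1). Of all genes, 0.579% were higher and 1.16% lower by these thresholds at 10 mM, and 0.965% and 1.96% at 20 mM. The split of the adjusted calls depended on the scaling of the libraries. With upper-quartile scaling, 81% of the calls among the 41 genes were increases at 10 mM and 84% at 20 mM, against 75% and 73.1% as deposited. With median-ratio scaling, it was 83.3% at 20 mM. For all genes the share of increases among the calls went from 40.9% to 51.6% at 10 mM and from 41.5% to 54.1% at 20 mM with upper-quartile scaling. When each of the 9 libraries was left out in turn, 13 of the 15 increases at 10 mM and 14 of the 19 at 20 mM kept their call every time, as did 2 of the 5 decreases at 10 mM and 4 of the 7 at 20 mM. Without control replicate 3, 3 genes rather than 5 were lower at 10 mM. The median at 10 mM was 0.07 without 10 mM replicate 2. As alternatives chosen after seeing the data, both libraries that leaned to short genes were left out, which gave 15 increases and 5 decreases among the 41 genes at 10 mM and 19 and 7 at 20 mM. Without both that leaned to long genes, there were 14 and 3 at 10 mM and 17 and 8 at 20 mM.

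**Figure D1:**
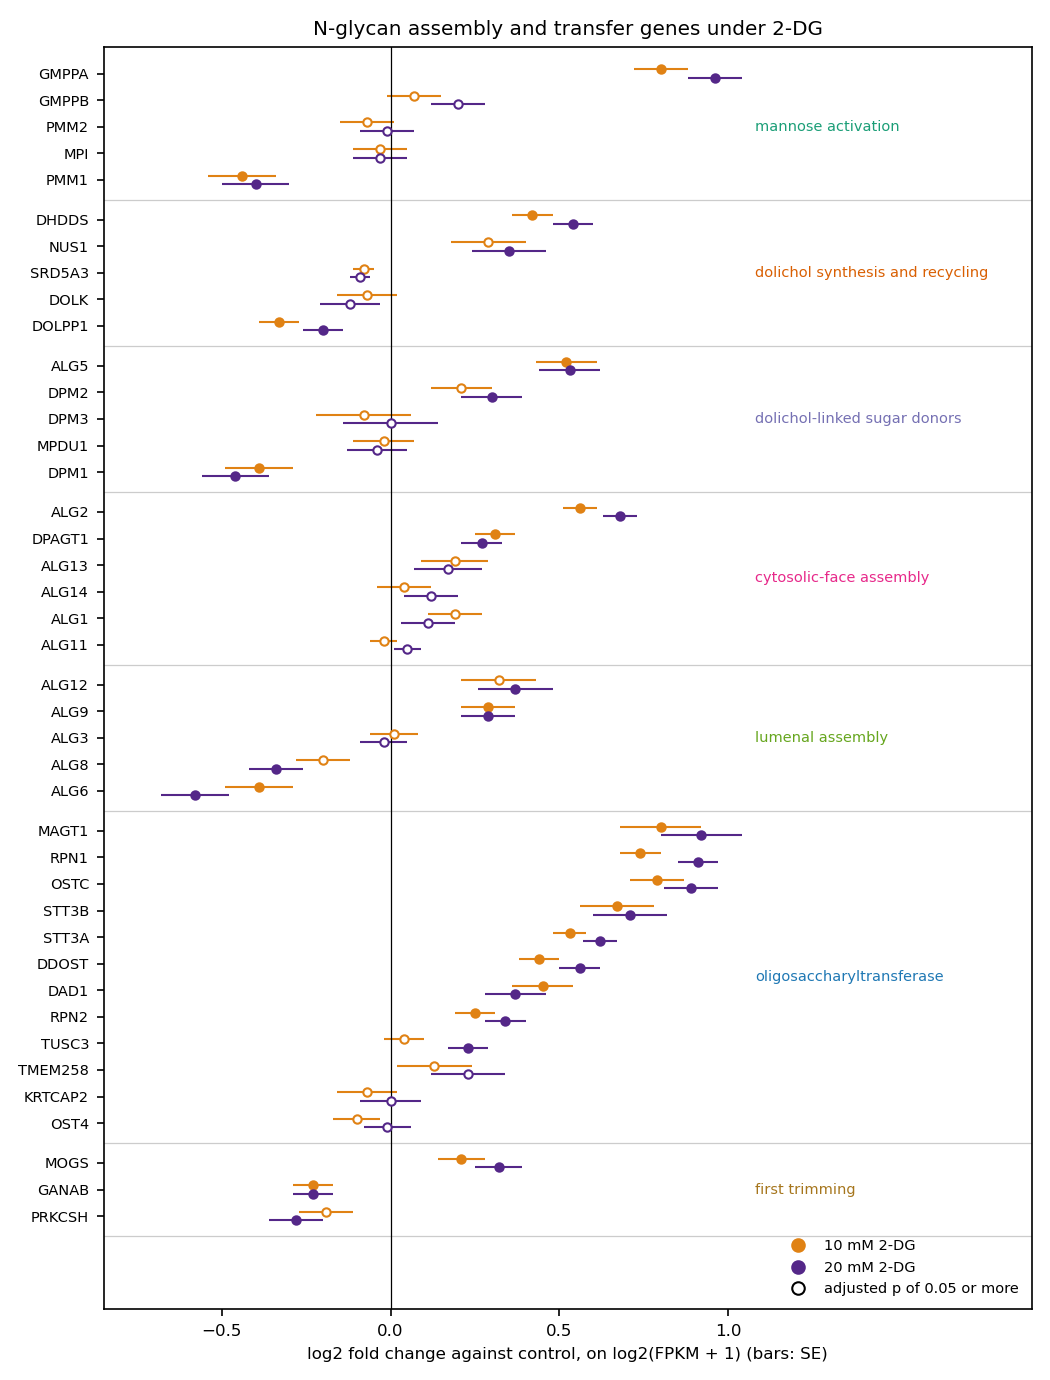
Log2 fold change against control for each of the 41 genes on the x axis, on log2(FPKM + 1), at 10 mM (orange) and 20 mM 2-DG (purple), with genes grouped by role on the y axis. Points are limma estimates from 3 libraries a group, bars are standard errors, and open points have an adjusted p of 0.05 or more. Increases run up to 0.96 (GMPPA, 20 mM) and decreases down to -0.58 (ALG6, 20 mM).

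The mannose activation enzymes were called in both directions, 1 of 5 higher and 1 lower at each dose. These cytosolic enzymes turn fructose-6-phosphate or mannose into GDP-mannose, the mannose donor: MPI interconverts fructose-6-phosphate and mannose-6-phosphate, PMM1 and PMM2 are phosphomannomutases, GMPPB is the catalytic subunit of GDP-mannose pyrophosphorylase, and GMPPA is its regulatory partner. Of the 5 genes, GMPPA rose and PMM1 fell at both doses, and MPI, PMM2 and GMPPB were not called. Among all genes tested, 12.1% were higher and 17.5% lower at 10 mM, and 15.4% and 21.6% at 20 mM. GMPPA read 11.3, 9.95 and 10.3 FPKM in the control libraries, 19.6, 20.7 and 17 FPKM at 10 mM and 22.6, 21.9 and 19.8 FPKM at 20 mM. Every treated library lay above every control library, with log2 fold changes of 0.80 ± 0.08 (SE, adjusted p = 0.000119) and 0.96 ± 0.08 (adjusted p = 2.39e-05), the largest rise of the 41 genes at 20 mM. GMPPB read 9.14, 9.05 and 8.09 FPKM in control, 10.4, 9.07 and 8.24 FPKM at 10 mM and 10.4, 10 and 10.1 FPKM at 20 mM. Its 20 mM libraries lay above control but did not pass the test as deposited (log2 fold change 0.20 ± 0.08 SE, adjusted p = 0.097). With median-ratio or upper-quartile scaling they did, at 0.25 and 0.28 (adjusted p = 0.0496 and 0.027). GMPPB shares 42.3% of its exon bases with AMIGO3 on the same strand, so its reads may be split with that gene.

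PMM1 read 5.96, 5.28 and 5.95 FPKM in control, 3.92, 4.67 and 3.34 FPKM at 10 mM and 4.06, 4.06 and 4.22 FPKM at 20 mM. All treated libraries lay below all control libraries, with log2 fold changes of -0.44 ± 0.10 (SE, adjusted p = 0.00953) and -0.40 ± 0.10 (adjusted p = 0.0127). PMM2, the isoenzyme that carries most of this step in human tissues, read 2.66, 2.44 and 2.36 FPKM in control, 2.31, 2.42 and 2.25 FPKM at 10 mM and 2.6, 2.21 and 2.56 FPKM at 20 mM. Its groups overlapped, with log2 fold changes of -0.07 (95% interval -0.26 to 0.12) and -0.01 (-0.20 to 0.17), and the sign at 20 mM turned with either scaling. MPI stood at 4.65 ± 0.266 FPKM (SD, n = 3) in control and at 4.52 ± 0.163 FPKM at 20 mM, a log2 fold change of -0.03 (-0.21 to 0.14). MPI shares 24.6% of its exon bases with FAM219B on the opposite strand. Whether the counting used strand is not given in the sources used here.

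In the dolichol branch, 1 of 5 genes was higher and 1 lower at 10 mM, and 2 and 1 at 20 mM. The share over all genes tested was 12.1% higher and 17.5% lower at 10 mM, and 15.4% and 21.6% at 20 mM. DHDDS rose, at 20 mM together with NUS1, and DOLPP1 fell. DHDDS and NUS1 together form the cis-prenyltransferase that makes the carbon chain, SRD5A3 reduces polyprenol to dolichol, DOLK phosphorylates it, and DOLPP1 removes a phosphate from the dolichyl pyrophosphate left after transfer so that the carrier can be used again. DHDDS read 10.5, 10.6 and 9.89 FPKM in control, 14.9, 13 and 14.5 FPKM at 10 mM and 15.5, 15.5 and 15.3 FPKM at 20 mM. The groups did not overlap with control, and the log2 fold changes were 0.42 ± 0.06 (SE, adjusted p = 0.00104) and 0.54 ± 0.06 (adjusted p = 0.000157). NUS1 followed at 20 mM, from 6.31 ± 0.359 to 8.3 ± 0.183 FPKM (SD, n = 3), a log2 fold change of 0.35 (adjusted p = 0.0273). That call was lost when control replicate 1 or 2 or any of the 20 mM libraries was left out (highest adjusted p = 0.0808).

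DOLPP1 read 13.5, 13.4 and 13.1 FPKM in control, 10.6, 10.4 and 10.1 FPKM at 10 mM and 10.9, 12 and 11.5 FPKM at 20 mM. It lay below control in all 6 treated libraries, and the log2 fold change was -0.33 ± 0.06 (SE, adjusted p = 0.00208) at 10 mM and -0.20 ± 0.06 (adjusted p = 0.0203) at 20 mM. The 20 mM call was lost with median-ratio scaling (adjusted p = 0.0786), with upper-quartile scaling (0.15), with limma-voom (0.0837) and without control replicate 1 or 2 or 20 mM replicate 1 or 3 (highest 0.0894), while the 10 mM call held in each of these. DOLK stood at 13.2 ± 1.47 FPKM (SD, n = 3) in control and 12 ± 0.355 FPKM at 20 mM, a log2 fold change of -0.12 (95% interval -0.32 to 0.08). SRD5A3 was scarce, at 0.139, 0.0992 and 0.17 FPKM in control against 0.0713, 0.0718 and 0.055 FPKM at 20 mM. All 6 treated libraries lay below control, without passing the test (adjusted p = 0.0981 at 10 mM and 0.061 at 20 mM). With so low a level, its log2 fold change of -0.09 on log2(FPKM + 1) understates the change, since the ratio of the mean FPKM was 0.485.

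Among the 5 genes of the dolichol-linked sugar donors, 1 was higher and 1 lower at 10 mM, and 2 and 1 at 20 mM. Over all genes tested, 12.1% were higher and 17.5% lower at 10 mM, and 15.4% and 21.6% at 20 mM. ALG5, which loads glucose onto dolichol phosphate, rose at both doses, and DPM1, which loads mannose, fell. ALG5 makes dolichol-phosphate-glucose. DPM1 is the catalytic subunit of dolichol-phosphate-mannose synthase, DPM2 and DPM3 hold it in the membrane, and MPDU1 is needed for the use of both donors. ALG5 read 2.2, 1.93 and 2.12 FPKM in control, 3.08, 3.58 and 3.59 FPKM at 10 mM and 3.31, 3.42 and 3.61 FPKM at 20 mM. It was higher in all treated libraries, by log2 fold changes of 0.52 ± 0.09 (SE, adjusted p = 0.00169) and 0.53 ± 0.09 (adjusted p = 0.0011). DPM1 read 3.18, 3.23 and 3.82 FPKM in control, 2.04, 2.54 and 2.49 FPKM at 10 mM and 2.3, 2.35 and 1.99 FPKM at 20 mM. It was lower in all treated libraries, by -0.39 ± 0.10 (SE, adjusted p = 0.0152) and -0.46 ± 0.10 (adjusted p = 0.00582). Without control replicate 3, its highest control library, the 10 mM call was lost (-0.33, adjusted p = 0.0565).

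The other subunits did not go with DPM1. DPM2 was called higher at 20 mM, 39.1 ± 2.12 against 31.6 ± 2.38 FPKM (SD, n = 3) in control, a log2 fold change of 0.30 (adjusted p = 0.0271), and the call was lost without control replicate 2 or 3 or 20 mM replicate 1 or 2 (highest adjusted p = 0.0925). DPM3 varied the most of the donor genes, between 38.2 and 55.4 FPKM within the control group, and had a log2 fold change of 0.00 at 20 mM (95% interval -0.31 to 0.32). MPDU1 stood at 19.8 ± 1.01 FPKM in control and 19.2 ± 0.493 FPKM at 20 mM (-0.04, -0.24 to 0.15). The FPKM of DPM1 and of ALG5 cannot be set beside those of the other genes without care. Their values gave whole reads at lengths of 9276 and 13831 bases, against 1207 and 2194 exon bases in GENCODE release 29. The ratio of a gene's FPKM between groups does not depend on the length, but a longer one lowers FPKM and so shrinks the log2 fold change on log2(FPKM + 1): at 20 mM the ratio of mean FPKM was 1.65 for ALG5 and 0.648 for DPM1. Lengths also differed for PMM2 (12581 against 7645 bases), ALG8 (9465 against 3448) and ALG1 (10637 against 4553).

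On the cytosolic face, the initiating transferase and the transferase of the next mannoses after the innermost one rose, and no gene fell. Of all genes tested, 12.1% were higher and 17.5% lower at 10 mM, and 15.4% and 21.6% at 20 mM. DPAGT1 transfers the first sugar phosphate to dolichol phosphate and is the target of tunicamycin, ALG13 and ALG14 together add the second N-acetylglucosamine, and ALG1, ALG2 and ALG11 add the mannoses. ALG2 read 16.5, 17.6 and 17.3 FPKM in control, 26.1, 26.1 and 25.1 FPKM at 10 mM and 29.4, 27.3 and 27.5 FPKM at 20 mM. The groups were far apart relative to their spread, with log2 fold changes of 0.56 ± 0.05 (SE, adjusted p = 6.79e-05) and 0.68 ± 0.05 (adjusted p = 1.27e-05). DPAGT1 went from 10 ± 0.238 FPKM (SD, n = 3) to 12.7 ± 0.502 FPKM at 10 mM and 12.3 ± 0.318 FPKM at 20 mM, with log2 fold changes of 0.31 (adjusted p = 0.00269) and 0.27 (adjusted p = 0.00509). It shares 21.3% of its exon bases with C2CD2L on the opposite strand.

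The other mannosyltransferases of this side were not called. ALG1 was at 2.51 ± 0.0522 FPKM in control and 2.79 ± 0.0943 FPKM at 20 mM (log2 fold change 0.11, 95% interval -0.08 to 0.30), and its treated libraries lay above control at both doses. ALG1 shares 22.2% of its exon bases with other genes on the same strand and 21.9% on the opposite strand. ALG11 was near the bottom of the range at 0.258 ± 0.0476 FPKM in control and 0.305 ± 0.0279 FPKM at 20 mM, with 120 to 180 reads per library. It shares 39.7% of its exon bases with UTP14C on the same strand. ALG13 had a log2 fold change of 0.17 (-0.05 to 0.39) and ALG14 one of 0.12 (-0.06 to 0.30) at 20 mM.

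In the lumen 2 of 5 genes rose and 2 fell at 20 mM, where 15.4% of all genes tested were higher and 21.6% lower. ALG3, ALG9 and ALG12 add mannose from dolichol-phosphate-mannose, and ALG6 and ALG8 then add the first and the second glucose. ALG6 and ALG8 were lower at 20 mM, ALG9 and ALG12 were higher, and ALG3 was not called. The difference between these enzyme classes was not tested. ALG6 read 2, 2.1 and 2.51 FPKM in control, 1.26, 1.41 and 1.66 FPKM at 10 mM and 0.965, 1.15 and 1.33 FPKM at 20 mM. All treated libraries lay below control, with log2 fold changes of -0.39 ± 0.10 (SE, adjusted p = 0.0194) and -0.58 ± 0.10 (adjusted p = 0.00199), the deepest decrease of the 41 genes at 20 mM on log2(FPKM + 1). By the ratio of mean FPKM, SRD5A3, which was not called, lay lower (0.485 against 0.521). The 10 mM call was lost without control replicate 3 (adjusted p = 0.0681) or 10 mM replicate 1 (0.0578). ALG8 read 7.28, 7.16 and 8.05 FPKM in control, 6.12, 6.31 and 6.74 FPKM at 10 mM and 5.06, 6.08 and 6.01 FPKM at 20 mM. Its groups did not overlap with control at either dose, and the test was passed at 20 mM (-0.34 ± 0.08 SE, adjusted p = 0.00989) but not at 10 mM (-0.20 ± 0.08, adjusted p = 0.102).

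ALG9 went from 0.949 ± 0.0717 FPKM (SD, n = 3) to 1.38 ± 0.123 FPKM at 10 mM and 1.39 ± 0.104 FPKM at 20 mM, a log2 fold change of 0.29 at both doses (adjusted p = 0.02 and 0.0142). Its calls were lost without control replicate 1 or 2 or 10 mM replicate 3 at 10 mM (highest adjusted p = 0.0717), and without control replicate 2 or 20 mM replicate 2 at 20 mM (highest 0.059). ALG9 shares 24.4% of its exon bases with AP001781.2 on the same strand, so its reads may be split with that gene. ALG12, whose promoter holds the ERSE printed above, read 2.23, 2.65 and 2.05 FPKM in control, 3.25, 3.25 and 2.84 FPKM at 10 mM and 3.15, 2.85 and 3.88 FPKM at 20 mM. The treated libraries lay above control at both doses, and the test was passed at 20 mM (0.37 ± 0.11 SE, adjusted p = 0.0267), a call lost without control replicate 1 or 3 or 20 mM replicate 1 or 3 (highest adjusted p = 0.104), but not at 10 mM (0.32 ± 0.11, adjusted p = 0.0599). ALG3 was level at 21.1 ± 1.24 FPKM in control and 20.7 ± 0.172 FPKM at 20 mM (-0.02, 95% interval -0.18 to 0.14).

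The ALG12 locus holds a second gene that starts from the same stretch. ALG12 (chromosome 22, 49900229 to 49918458, minus strand) and CRELD2, an ER stress gene (49918167 to 49927540, plus strand), share 168 exon bases, and with the antisense AL671710.1 a total of 42.1% of the ALG12 exon bases are also exonic on the other strand. CRELD2 read 6.09, 4.44 and 4.68 FPKM in control, 16.7, 19.8 and 18.3 FPKM at 10 mM and 21.3, 21.7 and 21 FPKM at 20 mM, with log2 fold changes of 1.67 (adjusted p = 4.25e-06) and 1.89 (adjusted p = 1.06e-06). The part of reads from these neighbours in the ALG12 values was not tested. The ALG12 promoter window printed above, with its ERSE, lies within the span of CRELD2. Whether the element acts on either gene was not tested.

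**Figure D2:**
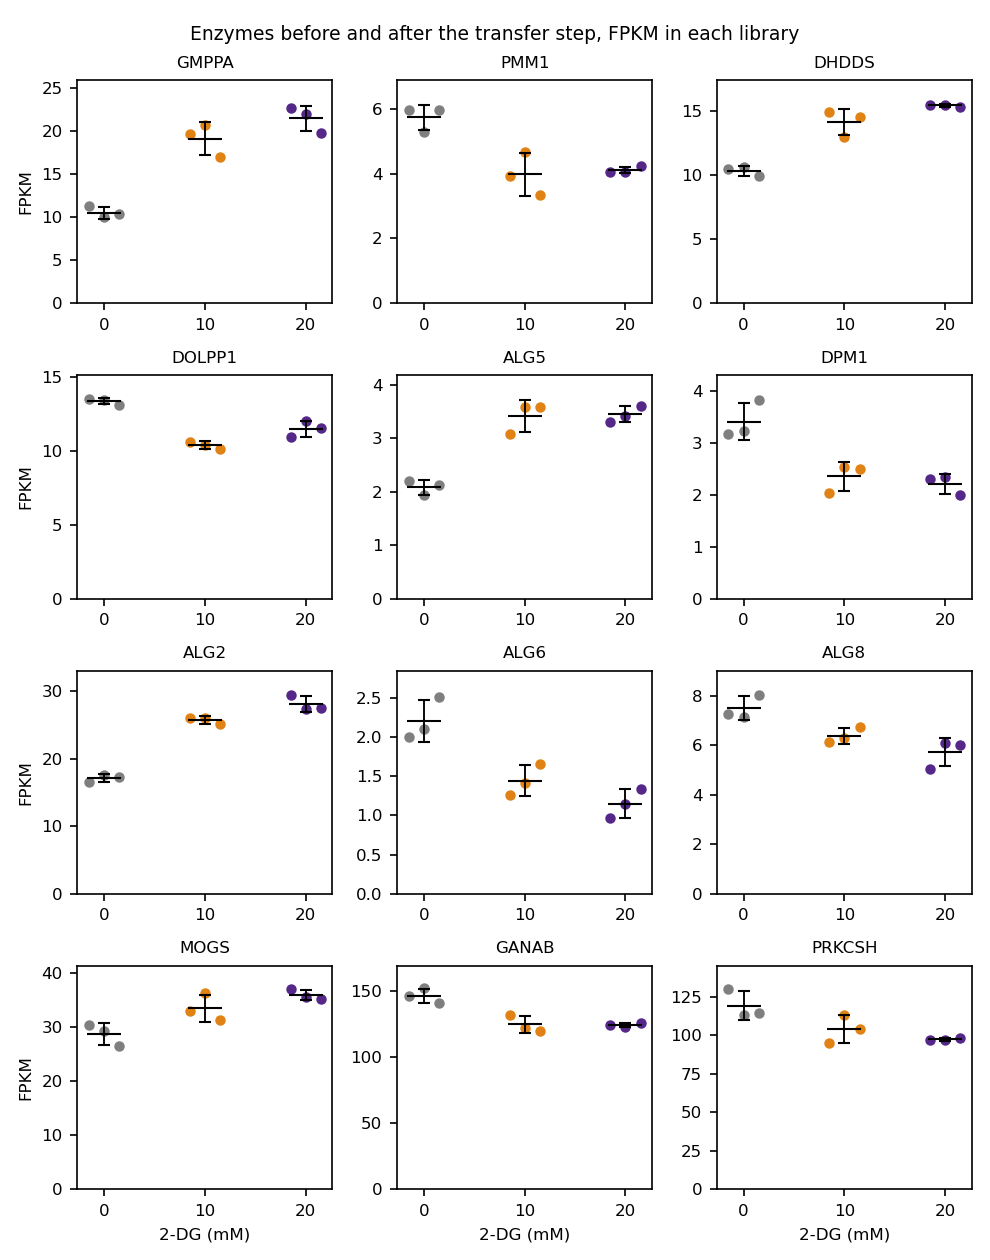
FPKM in each library (y axis, from 0) against the 2-DG concentration in mM (x axis) for 12 enzymes outside the OST, with points for libraries and black marks for the group mean ± SD (n = 3). GMPPA, DHDDS, ALG5, ALG2 and MOGS lie above control at 20 mM, and PMM1, DOLPP1, DPM1, ALG6, ALG8, GANAB and PRKCSH lie below.

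The oligosaccharyltransferase was the group with the most increases and no decrease. Of its 12 subunits, 8 rose at 10 mM and 9 at 20 mM, where 12.1% and 15.4% of all genes tested were higher, and none fell, where 17.5% and 21.6% of all genes were lower. Their median log2 fold change was 0.45 and 0.46. The enzyme exists in a pair of forms: the STT3A form sits at the translocon through OSTC and KRTCAP2 and glycosylates proteins as they enter the ER, and the STT3B form with MAGT1 or TUSC3, oxidoreductases, handles sites that were skipped. RPN1, RPN2, DDOST, DAD1, OST4 and TMEM258 belong to both. At 20 mM, 2 of the 3 subunits of the STT3A form, all 3 of the STT3B form and 4 of the 6 shared subunits were higher.

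The catalytic subunits rose side by side. STT3A read 46, 45.3 and 44.3 FPKM in control, 68.6, 64.7 and 63.6 FPKM at 10 mM and 70.3, 70 and 70.1 FPKM at 20 mM. It had narrow groups that did not overlap with control and log2 fold changes of 0.53 ± 0.05 (SE, adjusted p = 5.65e-05) and 0.62 ± 0.05 (adjusted p = 1.22e-05). STT3B read 43.2, 51.5 and 54.7 FPKM in control, 86.3, 68.2 and 85 FPKM at 10 mM and 79, 81.5 and 84.2 FPKM at 20 mM. Its libraries were more spread, control replicate 1 and 10 mM replicate 2 being the lowest of their groups, yet all treated libraries lay above control (0.67 ± 0.11 SE, adjusted p = 0.00123, and 0.71 ± 0.11, adjusted p = 0.000644). These are the libraries that leaned to short genes, and the part of that lean in the STT3B values was not tested. Without these libraries, the log2 fold changes of STT3B were 0.68 at 10 mM and 0.61 at 20 mM.

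Of the subunits particular to a form, OSTC and MAGT1 had the steepest rises. OSTC read 38.8, 36.9 and 43.2 FPKM in control, 63.4, 69.7 and 74.2 FPKM at 10 mM and 73, 77.1 and 72.9 FPKM at 20 mM (log2 fold changes 0.79 ± 0.08 SE, adjusted p = 6.35e-05, and 0.89 ± 0.08, adjusted p = 1.76e-05). MAGT1 read 6.15, 7.87 and 8.72 FPKM in control, 15.7, 12.2 and 13.8 FPKM at 10 mM and 15.2, 14.4 and 15.7 FPKM at 20 mM (0.80 ± 0.12 SE, adjusted p = 0.000901, and 0.92 ± 0.12, adjusted p = 0.000269). In both genes the lowest treated library stood clear of the highest control library. TUSC3, the alternative to MAGT1, read 9.42, 8.95 and 9.71 FPKM in control, 9.54, 9.33 and 10.1 FPKM at 10 mM and 10.7, 11.3 and 11.3 FPKM at 20 mM. Its 10 mM libraries overlapped with control (0.04 ± 0.06 SE, adjusted p = 0.655), and its 20 mM libraries lay above (0.23 ± 0.06, adjusted p = 0.0166), a call lost without control replicate 2 or 20 mM replicate 2 or 3 (highest adjusted p = 0.0658). KRTCAP2, the partner of OSTC, was counted at only 99 to 199 reads per library, with 1.03 ± 0.072 FPKM in control and 1.03 ± 0.247 FPKM at 20 mM (SD, n = 3), a log2 fold change of -0.00 (95% interval -0.21 to 0.20). KRTCAP2 shares 18.4% of its exon bases with AL713999.1 on the same strand, so its reads may be split with that gene.

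The subunits of both forms included RPN2, which had the highest FPKM of the 41 genes. RPN1, which presents chains to the catalytic subunit, read 86.5, 83.8 and 77.7 FPKM in control, 138, 146 and 132 FPKM at 10 mM and 157, 158 and 153 FPKM at 20 mM. The 3 groups did not overlap with each other, and the log2 fold changes were 0.74 ± 0.06 (SE, adjusted p = 2.83e-05) and 0.91 ± 0.06 (adjusted p = 4.45e-06). DDOST read 126, 119 and 115 FPKM in control, 163, 173 and 154 FPKM at 10 mM and 179, 175 and 176 FPKM at 20 mM (0.44 ± 0.06 SE, adjusted p = 0.000601, and 0.56 ± 0.06, adjusted p = 0.000103). RPN2 stood at 216 ± 6.57 FPKM (SD, n = 3) in control and at 274 ± 4.2 FPKM at 20 mM (log2 fold change 0.34, adjusted p = 0.00184). DAD1 went from 158 ± 8.43 to 218 ± 28.4 FPKM at 10 mM and 205 ± 9.4 FPKM at 20 mM (0.45 and 0.37, adjusted p = 0.00588 and 0.0116).

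The small subunits OST4 and TMEM258 were not called. OST4, a single short membrane helix, stood at 140 ± 7.41 FPKM in control and 139 ± 1.74 FPKM at 20 mM (log2 fold change -0.01, 95% interval -0.16 to 0.14). TMEM258 stood at 12.8 ± 0.418 FPKM and 15.2 ± 0.43 FPKM, with all 20 mM libraries above control (0.23, adjusted p = 0.118). Within the OST, log2 fold changes at 20 mM therefore ran from -0.01 to 0.92.

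**Figure D3:**
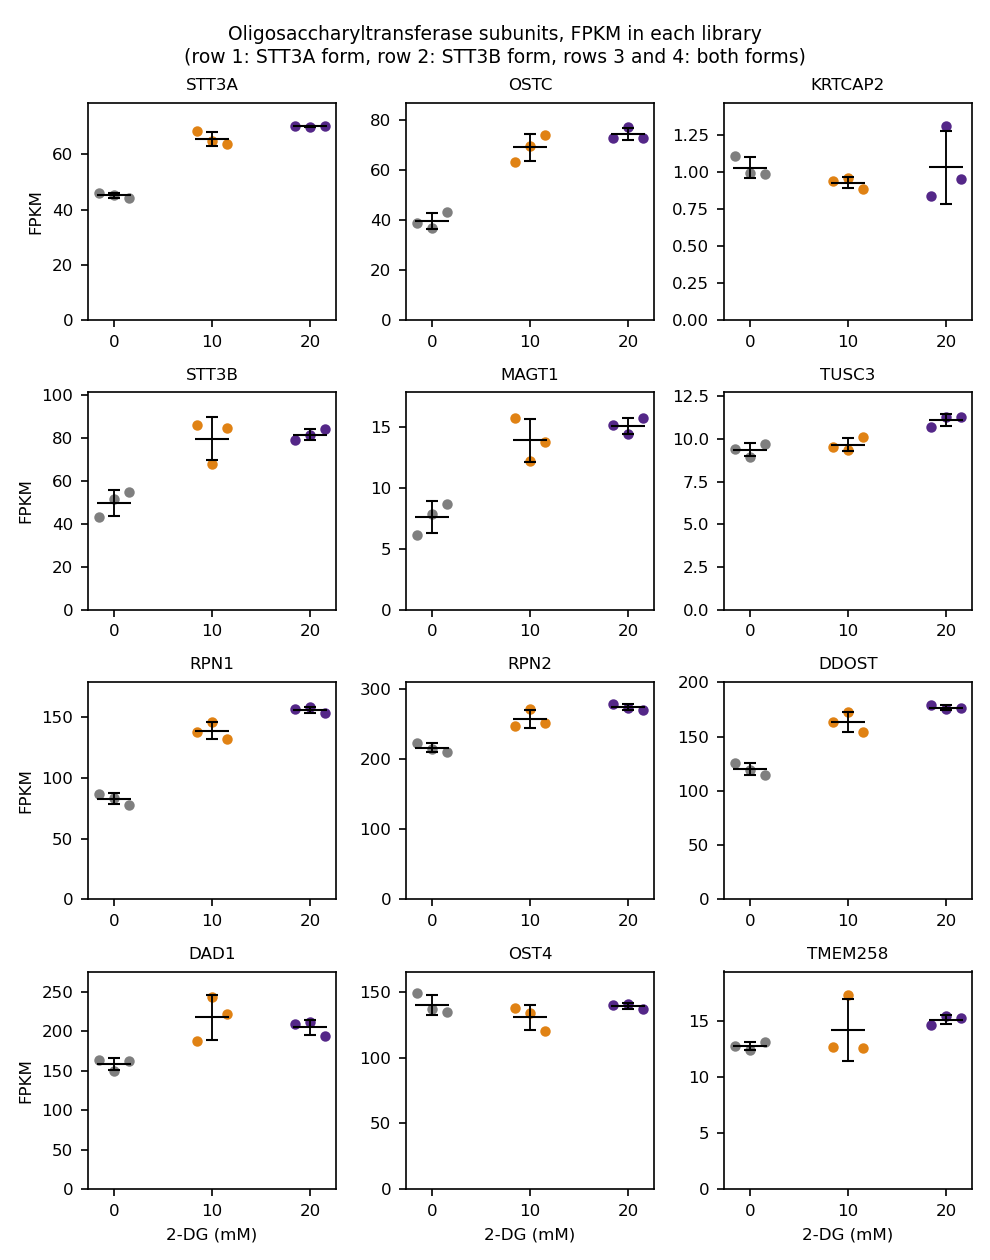
FPKM in each library (y axis, from 0) against the 2-DG concentration in mM (x axis) for the 12 OST subunits, with points for libraries and black marks for the group mean ± SD (n = 3). The top row holds subunits of the STT3A form, the next row those of the STT3B form and the lower rows those of both forms. All treated libraries lie above control for STT3A, OSTC, STT3B, MAGT1, RPN1, RPN2, DDOST and DAD1, whereas KRTCAP2 and OST4 overlap with control at 20 mM.

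Of the 3 genes of first trimming, 1 was higher and 1 lower at 10 mM, and 1 and 2 at 20 mM. For all genes tested, the shares were 12.1% higher and 17.5% lower at 10 mM, and 15.4% and 21.6% at 20 mM. MOGS, glucosidase I, removes the outermost glucose, and glucosidase II, made of catalytic GANAB and regulatory PRKCSH, removes the other two. MOGS stood at 28.8 ± 2.09 FPKM (SD, n = 3) in control, 33.6 ± 2.48 FPKM at 10 mM and 36 ± 0.931 FPKM at 20 mM, with log2 fold changes of 0.21 (adjusted p = 0.0447) and 0.32 (adjusted p = 0.00624). The 10 mM call was lost when any 1 library other than control replicate 1 and 10 mM replicate 3 was left out (highest adjusted p = 0.143), and also with median-ratio scaling and with limma-voom, and the 20 mM call was kept whichever of the 9 libraries was left out. GANAB read 146, 152 and 141 FPKM in control, 132, 122 and 120 FPKM at 10 mM and 124, 123 and 126 FPKM at 20 mM. It lay below control in all treated libraries, by -0.23 ± 0.06 (SE, adjusted p = 0.0145) and -0.23 ± 0.06 (adjusted p = 0.0115). PRKCSH read 130, 113 and 114 FPKM in control, 95.1, 113 and 104 FPKM at 10 mM and 96.5, 96.8 and 98.1 FPKM at 20 mM, with -0.19 ± 0.08 (SE, adjusted p = 0.098) and -0.28 ± 0.08 (adjusted p = 0.0162).

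The decreases of glucosidase II were small and rested on the scaling. With median-ratio scaling the 20 mM values became -0.17 for GANAB (adjusted p = 0.0524) and -0.23 for PRKCSH (0.0912), and with upper-quartile scaling -0.13 (0.109) and -0.19 (0.121), so that neither was called. The GANAB call was also lost without control replicate 2 at 10 mM (adjusted p = 0.0588) and without 20 mM replicate 2 at 20 mM (0.0501). The PRKCSH call at 20 mM was lost without control replicate 1, 20 mM replicate 1 or 20 mM replicate 2 (highest 0.0566).

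Ratios of paralogs within a library do not depend on the scaling. 4 pairs were compared in 3 comparisons each, 12 exact two-sided permutation tests of 3 against 3 libraries, in which the smallest possible p is 0.1. The ratio of STT3A to STT3B was 0.918 ± 0.132 (SD, n = 3) in control, 0.831 ± 0.105 at 10 mM and 0.861 ± 0.0285 at 20 mM. The groups overlapped, and the exact permutation p was 0.4 and 0.8 against control. The ratio of GMPPA to GMPPB was 1.2 ± 0.0917 in control, 2.08 ± 0.196 at 10 mM and 2.11 ± 0.131 at 20 mM, and that of MAGT1 to TUSC3 was 0.81 ± 0.137, 1.44 ± 0.183 and 1.36 ± 0.0803. The ratio of PMM1 to PMM2 went the other way, 2.31 ± 0.188, 1.71 ± 0.224 and 1.68 ± 0.14. In each of the last 3 pairs all treated libraries lay to one side of all control libraries at both doses, which gave the smallest exact permutation p of 0.1 (adjusted p = 0.2 over the 12 tests). The ratio in a library compares levels per length, so its level depends on the lengths used (PMM2 among them), and the shift between groups does not depend on the lengths.

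**Figure D4:**
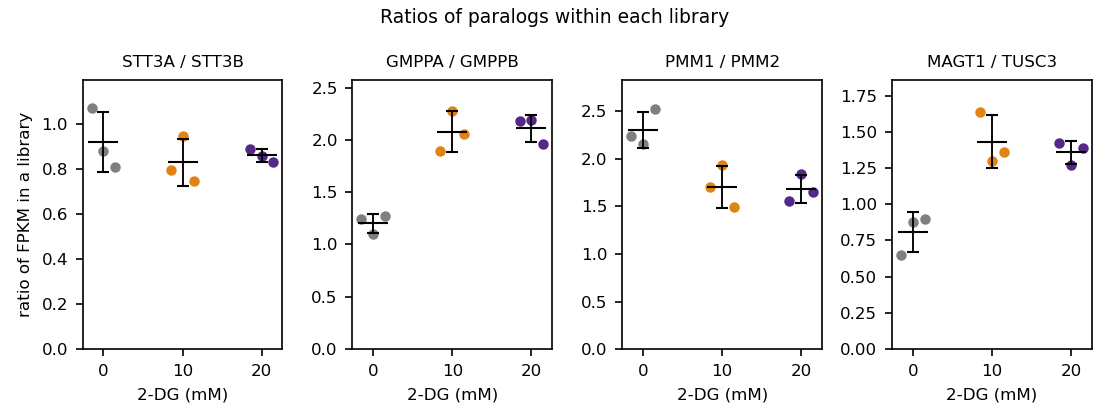
Ratio of FPKM of paralogs within each library (y axis, from 0) against the 2-DG concentration in mM (x axis), with points for libraries and black marks for the group mean ± SD (n = 3). STT3A to STT3B overlaps between groups, GMPPA to GMPPB and MAGT1 to TUSC3 are higher in all treated libraries, and PMM1 to PMM2 is lower in all treated libraries.

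Between the doses no gene of the set was called. At 20 mM against 10 mM, 0 of the 41 genes had an adjusted p under 0.05 in limma, as did 0% of all genes tested, and 0 passed the thresholds of the study's methods, against 0.00603% of all genes. At an unadjusted p under 0.05, 3 of the 41 genes differed, all higher at 20 mM, against 6.87% of all genes: DOLPP1, RPN1 and TUSC3. limma-voom on the recovered reads also called 0 of the 41. RPN1 differed by 0.17 (95% interval 0.03 to 0.31), TUSC3 by 0.18 (0.05 to 0.32), ALG6 by -0.19 (-0.42 to 0.05) and DOLPP1 by 0.13 (0.00 to 0.26). The median difference of the 41 genes was 0.06. These intervals are not adjusted for the number of genes.

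The rest of the glycosylation pathway was read from 7 lists, whose counts stand against 12.1% of all genes higher and 17.5% lower at 10 mM, and 15.4% and 21.6% at 20 mM. Of 5 genes of the calnexin cycle, 4 were higher at both doses, led at 20 mM by CALR (576 ± 37.2 to 1742 ± 30.3 FPKM, SD, n = 3, log2 fold change 1.60), PDIA3 (1.54) and CANX (1.13). CALR and CANX are lectins that bind glycans trimmed by GANAB, and PDIA3 is a disulfide isomerase that they recruit. Of 5 genes that supply UDP-N-acetylglucosamine, the donor used by DPAGT1, 2 were higher at 10 mM and 3 at 20 mM, with GFPT1, the entry enzyme of the hexosamine pathway, at 1.34, PGM3 at 0.43 and UAP1 at 0.25, and none was lower. All 3 genes that turn GDP-mannose into GDP-fucose or carry it into the Golgi were higher at both doses, SLC35C1 at 0.77, GFUS at 0.36 and GMDS at 0.30 at 20 mM. Of 7 genes of mannose trimming and glycan removal, 3 were higher at 10 mM, and 4 were higher and 1 lower at 20 mM (EDEM1 0.60, EDEM2 0.36, NGLY1 0.35).

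Of 12 other genes that use dolichol-phosphate-mannose, for protein O-mannose, C-mannose or GPI anchors, 2 were higher and 2 lower at both doses, with TMTC4 at -0.58, TMTC2 at 0.52 and PIGB at -0.36 at 20 mM. Of 17 Golgi processing genes tested of 18, 3 were higher and 1 lower at 10 mM and 4 and 1 at 20 mM, with MAN1A2 at 0.66, ST3GAL4 at -0.46 and MAN1A1 at 0.39. Of the other ER genes, the glycan-binding MLEC was higher at 20 mM (0.46), and ALG10 and ALG10B, which add the last glucose, were not called. None of these lists had a gene called between the doses.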

How the data were processed

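RNA of 9 MDA-MB-231 libraries was sequenced, 3 each at 0, 10 and 20 mM 2-DG for 24 h. The authors deposited FPKM values for 61552 genes per library, 20495 of them without a gene name. The submitters' processing notes name GRCh38 and hg38. Aligner, counter, strand setting and annotation release are not given in the sources used here. FPKM is relative to the library total and gene length, so a shift in a few abundant genes moves all others, and levels between genes depend on the lengths used. Besides the overlaps named above, PMM2 shares 16.0% and DDOST 15.7% of exon bases with other genes on the same strand. On the opposite strand the share is 21.0% for OST4, 19.2% for DPM2 and 18.4% for TMEM258.

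Library totals between 30974968 and 40843638 were found from the exon lengths of GENCODE release 29. The GENCODE exon length of a gene was kept where it turned all its values into whole reads, as it did for 15941 genes. For the rest, the shortest length that did so was sought. Whole reads were recovered for 32806 of the 32806 genes above 0. They are not the authors' counts. They served for limma-voom and for the filter, which kept the 16572 genes with 15 or more reads in total and, scaled to the median depth, 10 or more in 3 or more libraries. At these totals 1 read on 1 kb is worth between 0.0245 and 0.0323 FPKM. limma 3.58.1 (R 4.3.3) was run on log2(FPKM + 1) over all 9 libraries with a variance trend and Benjamini-Hochberg adjustment, leaving replicate numbers out, and was checked on simulated data. Replicates differed by more than sampling noise. DESeq2, the study's test, needs counts and was not run.

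The members, roles, lists and motifs were chosen with earlier results of these data known. Values per library were given, by rule, for the first 12 members called against control by absolute log2 fold change at 20 mM 2-DG, for up to 5 members called against the prevailing direction and for the paralog pairs. ALG12 and SRD5A3 were added after their values were seen. From each other list up to 3 called genes were named by the size of their change. CRELD2 was named as the neighbour of ALG12. 1 gene of the list of other ER steps is not reported here. Promoter windows came from RefSeq (GRCh38.p14), which matched 37 members, without RPN1, MOGS, TUSC3 and STT3B. Alternatives varied the scaling, the pseudocount, the filter, the fit and which libraries entered.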

Additional observations from a re-analysis of the deposited data

How the results depend on the processing

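The 774 alternative values cover 43 named fold changes, those of the members given per library by rule. They leave out other members, among them NUS1, DPM2, ALG9, ALG12 and MOGS, whose lost calls are given above. Of the 774, 738 kept their direction and their side of the threshold, 26 lost and 4 gained the call, and 6 turned their sign. None of these 6 was a called value. Those were GMPPB at 10 mM (-0.01 without 10 mM replicate 1, range -0.01 to 0.14 over 1 library left out) and PMM2 at 20 mM (0.02 with median-ratio and 0.05 with upper-quartile scaling, 0.02 without control replicate 1, 0.04 without 20 mM replicate 2, range -0.04 to 0.04 over 1 library left out, and 0.02 without the libraries leaning to short genes). The number of lower members at 10 mM ranged from 3 to 6 with 1 library left out (5 in all libraries) and was 3 without the libraries leaning to long genes, and at 20 mM it was 4 with median-ratio and 4 with upper-quartile scaling (7 as deposited). The median fold change of the members at 10 mM was 0.17 with median-ratio scaling, 0.19 with upper-quartile scaling, 0.18 without the libraries leaning to long genes, and 0.07 to 0.16 with 1 library left out. At 20 mM it was 0.25, 0.28, 0.23 with a pseudocount of 0.1, 0.24 with limma-voom, and 0.19 to 0.23 with 1 library left out. Members higher past the study's thresholds at 20 mM (0 as reported) were 2 with a pseudocount of 0.1, 1 with median-ratio scaling, 3 with upper-quartile scaling, 2 with limma-voom, 1 without the libraries leaning to short genes, and 0 to 1 with 1 library left out. The log2 ratio of STT3A to STT3B turned to 0.03 at 20 mM against control without control replicate 1 and to -0.01 between the doses without 10 mM replicate 3, with ranges over 1 library left out of -0.17 to 0.03 and -0.01 to 0.16. The cause of these shifts was not tested.

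The replicate numbers did not pair the libraries: same-numbered libraries correlated between -0.406 and 0.293 in their deviations, and not every library correlated best with its own number (control replicate 1 with 10 mM replicate 2, 0.521). With a replicate block, 15 members were higher and 5 lower at 10 mM, 17 and 7 at 20 mM, and 0 between the doses.

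With 3 libraries a group, the exact tests cannot reach a p under 0.1. Depth limits SRD5A3, KRTCAP2 and ALG11, which had at most 45, 199 and 180 reads in a library.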
